A study of Mus musculus with 24 samples.

Results

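The 10 genes described here are Slc7a11, Slc3a2, Gpx4, Gss, Acsl4, Aifm2, Trf, Tfrc, Slc40a1 and Fth1, taken by symbol from a count table of 25229 gene symbols. They were chosen on comparisons of these same read counts between treatments, so their levels and differences are given as a description. Where the number of them that passed the test across all genes is given, nothing is read from it. RNA was sequenced from ID8 P53 KO cells, a mouse ovarian cancer line in which the gene for P53 is knocked out, in 24 libraries. Each of 4 treatments of 6 days had 6 libraries. They were the vehicle DMSO, 2.5 µM AU15330, 750 nM CISPLATIN (a DNA-damaging drug), and CISPLATIN+AU15330. AU15330 is a PROTAC against Smarca4, that is, a molecule that directs the cell to degrade this ATPase of the SWI/SNF chromatin remodeler. The study describes it as degrading the paralog Smarca2 as well. The doses are those of the labels, and the study's methods give another dose of cisplatin for these cells. All groups shared the P53 KO genotype and a medium to which serum, insulin, transferrin and selenium were added. The cells of each group are therefore a single line, supplied with the iron carrier transferrin and with the selenium that selenoproteins need.

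Ferroptosis is a form of cell death driven by iron-dependent peroxidation of polyunsaturated phospholipids. Cystine enters through system xc−, in which Slc7a11 is the transporting light chain and Slc3a2 the heavy chain, and is used to make glutathione, with Gss as the last enzyme of that synthesis. Gpx4, a selenoprotein, uses glutathione to reduce lipid hydroperoxides, Aifm2 (also called FSP1) regenerates a lipid-soluble antioxidant independently of glutathione, and Acsl4 activates the polyunsaturated fatty acids that peroxidize. Transferrin (Trf) carries iron to its receptor Tfrc, ferritin heavy chain Fth1 stores it, and ferroportin (Slc40a1) exports it.

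Library totals ran from 17592588 to 25260009 counts, and a count of 3 corresponded to between 0.120 and 0.186 CPM (counts per 1000000 counts of the library, after scaling by the trimmed mean of M-values). All 10 genes passed the low-count filter, which kept 12941 genes. The epithelial and ovarian marker list was expressed, with a summed level of its 10 genes between 3193 and 4882 CPM in DMSO, although Epcam had at most 2 counts in any library. That sum ran from 4118 to 4911 CPM in CISPLATIN, from 1066 to 1187 CPM in AU15330 and from 1282 to 1455 CPM in CISPLATIN+AU15330. Of 10 markers of other cell types, all but Cd68 and Pecam1 had 5 or fewer counts in every library, and the summed level of these other 8 was at most 0.396 CPM. AU15330 acts on protein, so the Smarca4 transcript is no check of the treatment.

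Certain sequences are shown because they hold known control elements of members described below. ATF4, a transcription factor of the amino acid and stress response, binds the letters TGATGNAA, and these were searched on both strands in the RefSeq promoters (250 bases before the transcript start, GRCm38.p6) of the 8 members with an entry. Slc7a11 alone of the 8 had a match. It had 2, on opposite strands, whereas 3.45% of all 32851 promoters had any. The 100 bases before its start, at chr3:50443614-50443713 on the minus strand, are printed with both matches in capitals, from position -66 to -59 and from -47 to -40.

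Slc7a11 promoter: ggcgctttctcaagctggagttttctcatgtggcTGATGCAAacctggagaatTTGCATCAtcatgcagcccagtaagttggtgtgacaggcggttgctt

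The antioxidant response element core bound by Nrf2 (letters TGACNNNGC) was not found in the promoters of these 8 members, against 10.2% of all promoters. Such matches describe letters in a window and not bound sites.

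The iron-responsive element is a hairpin with the loop letters CAGTGN that the iron regulatory proteins bind when iron is scarce. In the 5′ UTR of ferritin and ferroportin it holds back translation, and in the 3′ UTR of Tfrc it protects the transcript from decay. Hairpins of this kind, with a bulged C and 5 paired bases below the loop, were found in the annotated UTRs of 3 of the 10 members and of 0.709% of 21875 protein-coding genes. They are shown with the loop in capitals, by GRCm38 coordinates and GENCODE M21 UTRs, together with that of Ftl1, the ferritin light chain.
Tfrc 3′ UTR, chr16:32631219-32631247, plus strand: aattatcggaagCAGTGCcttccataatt
Tfrc 3′ UTR, chr16:32631598-32631626, plus strand: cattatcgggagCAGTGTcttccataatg
Tfrc 3′ UTR, chr16:32631663-32631691, plus strand: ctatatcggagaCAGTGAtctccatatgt
Tfrc 3′ UTR, chr16:32631710-32631738, plus strand: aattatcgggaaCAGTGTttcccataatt
Slc40a1 5′ UTR, chr1:45925465-45925493, minus strand: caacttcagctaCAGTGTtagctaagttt
Fth1 5′ UTR, chr19:9982732-9982760, plus strand: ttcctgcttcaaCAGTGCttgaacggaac
Ftl1 5′ UTR, chr7:45459779-45459807, minus strand: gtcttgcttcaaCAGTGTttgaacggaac

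The cystine importer Slc7a11 (chr3:49892526-50443614, GRCm38) was highest in DMSO and lower in every other treatment. Its level in DMSO ran from 26.8 to 260 CPM with a median of 181 CPM. In CISPLATIN it ran from 14.4 to 24.5 CPM around a median of 17.7 CPM, and in AU15330 from 3.29 to 5.76 CPM around 4.18 CPM. Neither treated group overlapped DMSO, and every AU15330 library also lay below every CISPLATIN library. In bulk RNA, fewer cells of a kind and less RNA in each cell cannot be told apart.

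The difference in Slc7a11 from DMSO was -3.10 ± 0.33 (log2 fold change ± SE, n = 6 libraries per group) with CISPLATIN and -5.21 ± 0.37 with AU15330, which is 8.58-fold and 37.1-fold lower. Both differences rest on the same 6 DMSO libraries. DMSO replicate 1, at 26.8 CPM, was well below the other 5, which held 115 to 260 CPM. Without replicate 1 of each group the log2 differences were -3.42 and -5.55.

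With both drugs Slc7a11 was near its CISPLATIN level. CISPLATIN+AU15330 held 11.2 to 26.1 CPM with a median of 17.1 CPM, a log2 difference from CISPLATIN of -0.04 ± 0.31, with overlapping groups. Against AU15330 alone it was higher by 2.07 ± 0.35 on the log2 scale, and these groups did not overlap. The log2 effect of AU15330 in the presence of CISPLATIN minus its effect in the absence of CISPLATIN, called the interaction below, was 5.18 ± 0.48.

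Slc3a2 (chr19:8706882-8723369), which also pairs with other amino acid transporters, was lower with either drug. Its levels ran from 322 to 824 CPM in DMSO (median 611 CPM), from 268 to 384 CPM in CISPLATIN (median 295 CPM) and from 250 to 342 CPM in AU15330 (median 301 CPM). DMSO replicate 1 was again the lowest DMSO library, at 322 CPM against 590.5 CPM or more in the others, and it alone made DMSO overlap the treated groups. The log2 differences were -0.98 ± 0.15 with CISPLATIN and -1.02 ± 0.15 with AU15330.

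In CISPLATIN+AU15330, Slc3a2 held 393 to 554 CPM with a median of 461 CPM, above every library of CISPLATIN and of AU15330. The log2 difference was 0.60 ± 0.15 against CISPLATIN and 0.64 ± 0.15 against AU15330, and the interaction was 1.62 ± 0.21. Its difference from DMSO, -0.38 ± 0.15, was -0.62 without replicate 1 and 0.02 with replicates 1 to 3 only. Per kilobase of exon, the DMSO level ran from 1.93 to 18.6 CPM for the light chain and from 91.4 to 234 CPM for the heavy chain, and in AU15330 the medians were 0.300 and 85.3 CPM.

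**Figure D1:**
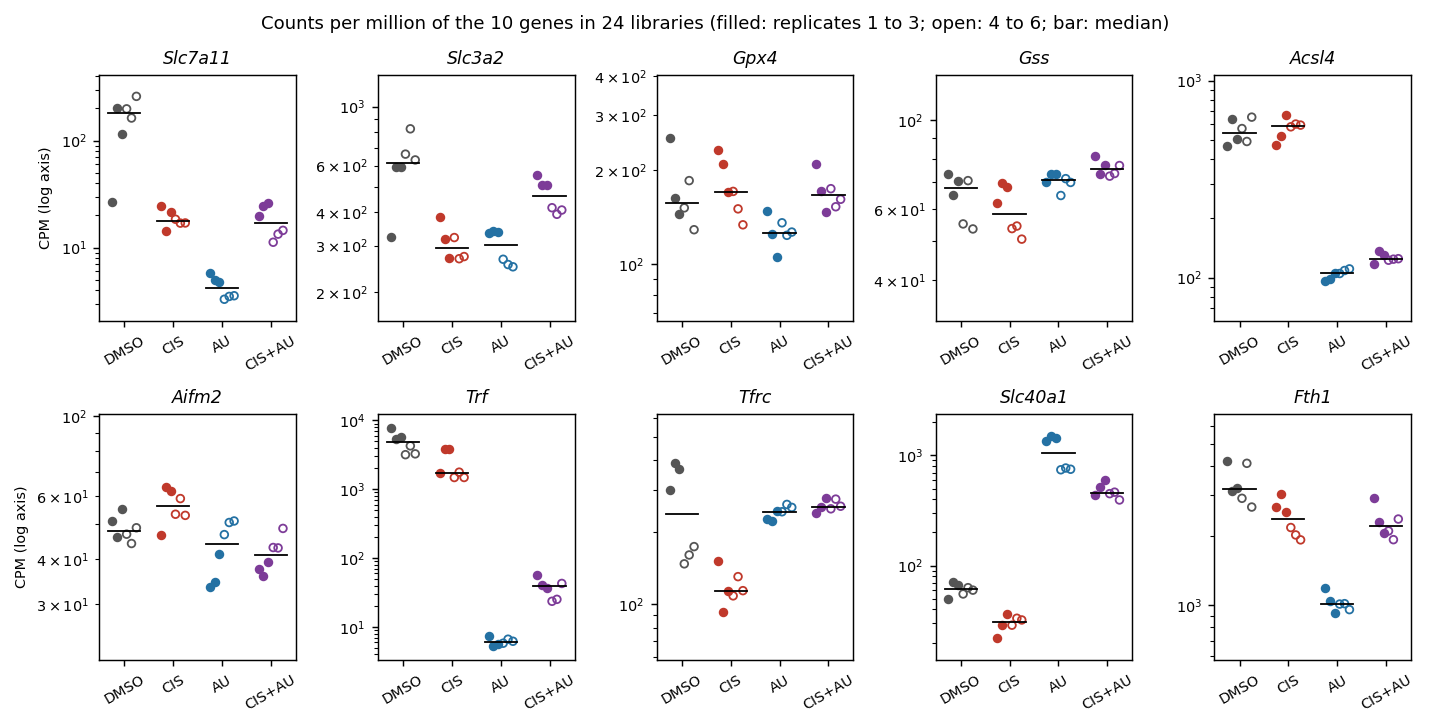
CPM of each of the 10 genes (log axis, its range set per gene) in the 6 libraries of DMSO, CISPLATIN (CIS), AU15330 (AU) and CISPLATIN+AU15330 (CIS+AU), with a bar at the median. Slc7a11 and Trf are lowest in AU15330, Acsl4 is low and Slc40a1 high in both groups given AU15330, and the DMSO libraries of Tfrc separate into replicates 1 to 3 (300.1 to 390.1 CPM) and 4 to 6 (148 to 174 CPM).

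Gss (chr2:155563181-155592810), the enzyme that adds glycine to complete glutathione, varied little. Its median was 67.7 CPM in DMSO, 58.2 CPM in CISPLATIN, 70.8 CPM in AU15330 and 75.3 CPM in CISPLATIN+AU15330. Only CISPLATIN and CISPLATIN+AU15330 did not overlap among the comparisons of Gss, with a log2 difference of 0.34 ± 0.08. Gss lies opposite Acss2, which had up to 2624 counts in a library, and whether the counting used strand is not given in the sources used here, so part of its count could come from that gene.

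Gpx4 (chr10:80047166-80056439) overlapped between groups in every comparison. Its level ran from 129 to 253 CPM in DMSO (median 157 CPM), 134 to 232 CPM in CISPLATIN (median 171 CPM), 106 to 149 CPM in AU15330 (median 126 CPM) and 147 to 210 CPM in CISPLATIN+AU15330 (median 166 CPM). The log2 differences were 0.06 ± 0.14 with CISPLATIN, -0.42 ± 0.14 with AU15330 and -0.07 ± 0.14 for the combination against CISPLATIN. Replicate 1 was the highest library for Gpx4 in all 4 groups.

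Aifm2 (chr10:61715263-61739260) stayed within a narrow range of 33.4 to 63.5 CPM over all 24 libraries. Its log2 differences were 0.21 ± 0.10 with CISPLATIN, -0.18 ± 0.10 with AU15330 and -0.45 ± 0.10 for the combination against CISPLATIN, and the groups overlapped in each. In AU15330, replicates 1 to 3 held 33.4 to 41.3 CPM and replicates 4 to 6 held 46.8 to 51.0 CPM. Its difference with AU15330 was -0.48 in the first set of replicates and 0.07 in the second. One end of Aifm2 overlaps H2afy2 on the opposite strand, listed in the table as Macroh2a2 with 2 to 247 counts in a library, so part of its count could come from that gene too.

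Acsl4 (chrX:142317993-142390535), which makes membranes more oxidizable, was low wherever AU15330 was given. It ran from 465 to 653 CPM in DMSO (median 540 CPM) and from 474 to 672 CPM in CISPLATIN (median 589 CPM). With AU15330 it ran from 96.3 to 111 CPM (median 105 CPM), and with both drugs from 117 to 137 CPM (median 125 CPM). DMSO and CISPLATIN overlapped almost fully, and every library given AU15330 lay below every library without it.

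For Acsl4 the log2 difference was -2.41 ± 0.09 for AU15330 against DMSO and -2.19 ± 0.09 for the combination against CISPLATIN. These are 5.32-fold and 4.57-fold lower levels from separate sets of libraries, and the interaction was 0.22 ± 0.12. CISPLATIN alone gave 0.05 ± 0.08. Among these 10 genes, Acsl4, Trf and Slc40a1 were the ones whose groups separated in the same direction in both comparisons of AU15330.

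Trf (chr9:103204001-103230444) was among the most abundant transcripts of these cells and was nearly lost with AU15330. By mean CPM it ranked 2 of 25229 symbols in DMSO, 8 in CISPLATIN, 9788 in AU15330 and 6007 in CISPLATIN+AU15330. Its level ran from 3174 to 7771 CPM in DMSO (median 4820.0 CPM), from 1479.9 to 3839 CPM in CISPLATIN (median 1740.0 CPM), from 5.24 to 7.38 CPM in AU15330 (median 6.01 CPM) and from 23.6 to 56.3 CPM with both drugs (median 38.8 CPM). The AU15330 libraries still held 119 to 164 counts each, far above the floor of 3.

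The log2 difference of Trf was -9.64 ± 0.37 for AU15330 against DMSO (799-fold lower) and -5.96 ± 0.31 for the combination against CISPLATIN (62.2-fold lower), with no overlap in either. Against AU15330 alone the combination was higher by 2.61 ± 0.29 on the log2 scale, also without overlap, and the interaction was 3.68 ± 0.38. With CISPLATIN alone Trf was lower by 1.07 ± 0.25, but replicates 2 and 3 of CISPLATIN, at 3775 and 3839 CPM, lay inside the DMSO range while the other 4 held 1479.9 to 1769 CPM. The counted transcript is the one made by the cells, apart from the transferrin protein added to the medium.

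Slc40a1, which encodes ferroportin (chr1:45908068-45926523), went the other way with AU15330. Its level ran from 50.1 to 71.7 CPM in DMSO (median 61.5 CPM), from 22.1 to 36.5 CPM in CISPLATIN (median 30.6 CPM), from 741 to 1491 CPM in AU15330 (median 1061 CPM) and from 394 to 594 CPM in CISPLATIN+AU15330 (median 457 CPM). All 4 groups were separate from each other. In AU15330, replicates 1 to 3 held 1352 to 1491 CPM and replicates 4 to 6 held 741 to 769 CPM.

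The log2 difference of Slc40a1 was 4.16 ± 0.19 for AU15330 against DMSO (17.9-fold higher) and 3.97 ± 0.19 for the combination against CISPLATIN (15.7-fold higher). Within replicates 1 to 3 and 4 to 6 the first value was 4.50 and 3.65. With CISPLATIN the level was lower both without AU15330, by a log2 difference of -1.01 ± 0.17, and with it, 2.29-fold lower than in AU15330 alone, and the interaction was -0.19 ± 0.24. Macrophages also express ferroportin. The macrophage marker Cd68 had a median of 10.6 CPM in DMSO and 35.2 CPM in AU15330, whereas Adgre1 had at most 2 counts and Ptprc at most 5 counts in every library. The summed level of the 10 markers of other cell types, nearly all of it Cd68 and Pecam1, ran from 9.37 to 20.8 CPM in DMSO, 15.3 to 25.0 CPM in CISPLATIN, 17.8 to 54.9 CPM in AU15330 and 25.8 to 44.9 CPM in CISPLATIN+AU15330. Its part in the difference of Slc40a1 was not tested.

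**Figure D2:**
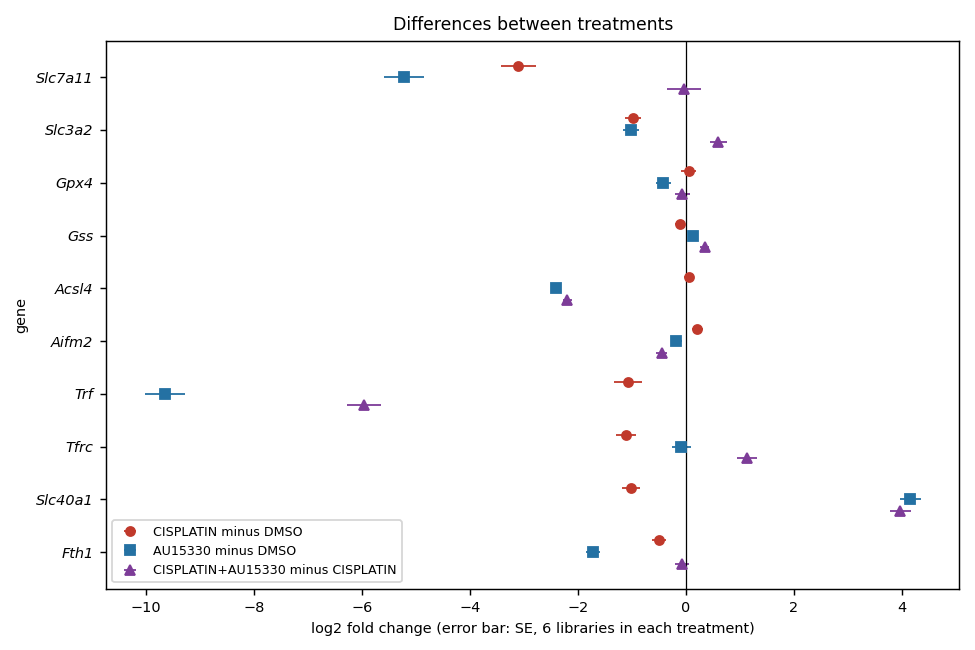
Log2 fold change with SE (6 libraries per group) of the 10 genes for CISPLATIN against DMSO, AU15330 against DMSO and CISPLATIN+AU15330 against CISPLATIN. The AU15330 difference of Acsl4 and Slc40a1 is close with and without CISPLATIN (-2.41 and -2.19, 4.16 and 3.97), while that of Slc7a11 is -5.21 without and -0.04 with it.

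The transferrin receptor Tfrc (chr16:32608920-32632794) was lowest in CISPLATIN. Its level ran from 148 to 390.1 CPM in DMSO (median 237 CPM), from 93.3 to 151 CPM in CISPLATIN (median 114 CPM), from 222 to 261 CPM in AU15330 (median 244 CPM) and from 239.7 to 277 CPM with both drugs (median 256 CPM). Every CISPLATIN library lay below every library given AU15330, and the DMSO range overlapped all 3 other groups. The combination was higher than CISPLATIN by 1.13 ± 0.18 on the log2 scale.

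The DMSO libraries of Tfrc fell into 2 levels, and so did the differences taken from them. With CISPLATIN the log2 difference was -1.11 ± 0.18 over all libraries, -1.56 in replicates 1 to 3 and -0.46 in replicates 4 to 6. With AU15330 it was -0.08 ± 0.18 over all libraries, -0.61 in replicates 1 to 3 and 0.64 in replicates 4 to 6, so its direction depended on the replicates used. The labels name no batch for these replicate numbers.

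Fth1 (chr19:9980598-9985098), the ferritin chain that oxidizes iron for storage, was lowest with AU15330 alone. Its level ran from 2663 to 4222 CPM in DMSO (median 3175 CPM), from 1918 to 3019 CPM in CISPLATIN (median 2358 CPM), from 921 to 1180.3 CPM in AU15330 (median 1012 CPM) and from 1922 to 2908 CPM with both drugs (median 2194 CPM). All AU15330 libraries lay below all others, and CISPLATIN and CISPLATIN+AU15330 covered nearly the same range. Fth1 has processed copies in the genome, and how the counting placed reads that match several copies is not given in the sources used here.

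The log2 difference of Fth1 was -1.73 ± 0.13 for AU15330 against DMSO and -0.07 ± 0.12 for the combination against CISPLATIN, with an interaction of 1.65 ± 0.18. CISPLATIN alone gave -0.50 ± 0.12, with overlapping groups. Ftl1, the light chain that shares the element shown above, had medians of 1807 CPM in DMSO, 1059 CPM in CISPLATIN, 2128 CPM in AU15330 and 1813 CPM in the combination. Fth1 had its lowest median, and Ftl1 its highest, in AU15330, although Ftl1 did not pass the test against DMSO there (log2 difference 0.18 ± 0.11, edgeR adjusted p = 0.128). The direction of Ftl1 there depended on the replicates used, at -0.09 (adjusted p = 0.521) in replicates 1 to 3 alone and 0.46 (adjusted p = 8.89e-05) in replicates 4 to 6 alone. It passed without replicate 3 (0.29, adjusted p = 0.0272) and with total-count scaling (0.31, adjusted p = 0.00911).

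Across the 10 genes, 6 passed an adjusted p of 0.05 for CISPLATIN against DMSO, all lower, beside 51.7% of the 12941 genes tested. For AU15330 against DMSO it was 7 (1 higher, 6 lower) beside 73.4%, and for CISPLATIN+AU15330 against CISPLATIN 7 (4 higher, 3 lower) beside 68.1%. It was 7 (6 higher, 1 lower) beside 41.7% for the combination against AU15330, 8 (2 higher, 6 lower) beside 73.3% for the combination against DMSO, and 5 (all positive) beside 33.7% for the interaction. Because these contrasts were in view when the genes were chosen, nothing is read from the counts. The groups did not overlap for 2 members with CISPLATIN beside 24% of the genes tested (3100 genes), for 5 with AU15330 beside 49.9%, and for 6 in the combination against CISPLATIN beside 50.2%. It was 6 members beside 29.6% for the combination against AU15330 and 4 beside 49.5% for the combination against DMSO, and nothing is read from these counts either.

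**Figure D3:**
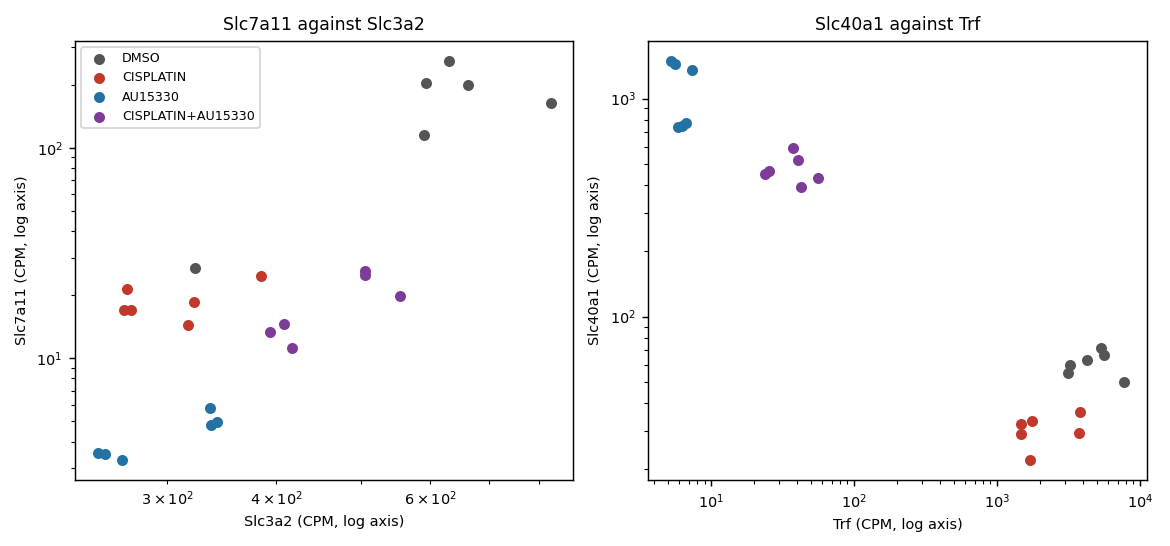
Levels in the 24 libraries (CPM, log axes) of Slc7a11 against its partner Slc3a2 and of Slc40a1 against Trf, with points coloured by treatment. For Slc7a11 and Slc3a2, DMSO replicate 1 (26.8 and 322 CPM) lies below the other DMSO libraries, above all CISPLATIN libraries for Slc7a11 (24.5 CPM at most) and within their range for Slc3a2 (268 to 384 CPM). For Slc40a1 and Trf, the libraries given AU15330 (Slc40a1 at 394 CPM or more, Trf at 56.3 CPM or less) stand apart from those without it.

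Over the 24 libraries and 8385 genes of sufficient level, the genes whose log2 CPM was most like that of Slc7a11 were Rae1 (Pearson r = 0.953), Sec24d (0.941), Nelfa (0.938), Cebpg (0.935) and Snai2 (0.933). For Trf they were Ephx1 (0.994), F11r (0.993), Rcan2 (0.993), Star (0.993) and Sema7a (0.992). The points share 4 treatments, so these values mostly describe the order of the treatment levels. They do not describe the size of the differences, which were much smaller in the genes most like Slc7a11. Its medians were 181 CPM in DMSO and 4.18 CPM in AU15330, against 64.3 and 41.6 CPM for Rae1 and 48.0 and 37.2 CPM for Nelfa. Sec24d differed most of the 5, with 108 and 15.3 CPM. Star, the cholesterol carrier of steroid-making cells, had a median of 548 CPM in DMSO and 2.49 CPM in AU15330, and Rcan2 had 227 and 4.94 CPM.

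The wider pathways were followed in 7 lists of 106 genes other than the members, of which 94 passed the low-count filter, and these were tested with edgeR's quasi-likelihood test with Benjamini-Hochberg adjustment over all genes. With CISPLATIN, 16 rose and 48 fell, 68.1% of those tested against 51.7% of all genes, with a median log2 difference of -0.25 against 0.00 over all genes. With AU15330, 16 rose and 51 fell (71.3% against 73.4%, median -0.31 against 0.00). When AU15330 was added to CISPLATIN, 34 rose and 34 fell (72.3% against 68.1%, median 0.01 against 0.04). In the interaction, 41 were positive and 10 negative (54.3% against 33.7%, median 0.30 against 0.01). Scaled by total counts alone, the split with AU15330 was 22 higher and 41 lower. The lists were chosen with earlier results of these data known, so their shares and medians, here and below, are a description.

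Of 17 tested genes of cystine supply and glutathione, 2 rose and 9 fell with CISPLATIN (64.7% called, against 51.7% of all genes). Gclc, the catalytic subunit of the enzyme that starts glutathione synthesis, fell by 1.09 ± 0.17 (log2, adjusted p = 8.27e-06), and Chac1, which degrades glutathione, was 2.30-fold lower (adjusted p = 5.12e-05). The groups of Chac1 overlapped, and in replicate 1 it was higher with CISPLATIN (23.8 CPM) than in DMSO (16.9 CPM). Its log2 difference with CISPLATIN was -0.63 in replicates 1 to 3 alone (adjusted p = 0.0608) and -1.60 in replicates 4 to 6 alone. Mat2a, which makes the methyl donor of the route to cysteine, rose by 0.22 ± 0.07 (adjusted p = 0.00669). Without overlap between groups, the median of Gclc was 104 CPM in DMSO and 56.8 CPM in CISPLATIN.

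With AU15330, 3 of these 17 rose and 11 fell (82.4% against 73.4%). Glutathione reductase Gsr rose by 0.57 ± 0.08 (adjusted p = 5.54e-07) and the peroxidase Gpx1 by 0.53 ± 0.15 (adjusted p = 0.00260). Ggt1, which breaks down glutathione outside the cell, fell by 1.70 ± 0.12 (adjusted p = 1.89e-12) and the amino acid transporter Slc7a6 fell by 1.23 ± 0.08 (adjusted p = 3.40e-13). Slc7a6 is, like Slc7a11, a light chain that pairs with Slc3a2.

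Adding AU15330 to CISPLATIN raised 9 and lowered 7 of these 17 (94.1% against 68.1%). Chac1 rose by 1.48 ± 0.22 (adjusted p = 1.33e-06) and Gclc by 1.24 ± 0.17 (adjusted p = 5.15e-07), while Ggt1 fell by 1.57 ± 0.12 (adjusted p = 7.95e-12) and Slc7a7, another light chain, fell by 1.03 ± 0.16 (adjusted p = 4.58e-06). The interaction was 1.09 ± 0.17 for Gclm, the regulatory partner of Gclc (adjusted p = 1.64e-05). For Chac1 it was 1.40 ± 0.30 (adjusted p = 0.000911), but 0.50 in replicates 1 to 3 alone (adjusted p = 0.373) and 2.11 in replicates 4 to 6 alone. Thus Gclc in the combination, at a median of 145 CPM, was above every CISPLATIN library, whereas Slc7a11 was not.

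Among 19 tested genes of defence against lipid peroxides, 4 rose and 12 fell with CISPLATIN (84.2% called, against 51.7% of all genes). Gch1, which starts synthesis of the antioxidant tetrahydrobiopterin, rose by 0.86 ± 0.06 (adjusted p = 4.46e-12) and the sterol enzyme gene Sc5d by 0.49 ± 0.09 (adjusted p = 7.92e-05). The quinone reductase Nqo1 fell by 1.57 ± 0.21 (adjusted p = 1.02e-06) and Scd1, which makes monounsaturated fatty acids, fell by 1.39 ± 0.19 (adjusted p = 1.13e-06). With AU15330, 3 rose and 10 fell (68.4% against 73.4%), among them Scd1 up by 1.38 ± 0.19 (adjusted p = 3.79e-07) and the selenium gene Sephs2 up by 0.85 ± 0.12 (adjusted p = 7.71e-07). In AU15330, replicates 1 to 3 held 992 to 1231 CPM of Scd1 and replicates 4 to 6 held 1691 to 1864 CPM, and its difference was 0.67 in the first set alone and 2.08 in the second.

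With AU15330, Acsl3, which activates monounsaturated fatty acids, fell by 1.77 ± 0.12 (adjusted p = 4.56e-13). Mboat1, a phospholipid acyltransferase, fell by 1.67 ± 0.10 (adjusted p = 3.56e-14). In the combination against CISPLATIN, 6 rose and 8 fell (73.7% against 68.1%), with Scd1 higher by 2.39 ± 0.20 (adjusted p = 4.02e-11), Nqo1 higher by 1.88 ± 0.21 (adjusted p = 2.01e-08), Mboat1 lower by a log2 difference of -1.53 ± 0.10 (adjusted p = 2.02e-13) and Gch1 lower by one of -1.28 ± 0.06 (adjusted p = 4.28e-16). In the interaction 11 were positive and 0 negative (57.9% called, against 33.7% of all genes), among them Nqo1 at 1.38 ± 0.29 (adjusted p = 0.000745) and the thioredoxin reductase Txnrd1 at 1.27 ± 0.19 (adjusted p = 1.18e-05).

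**Figure D4:**
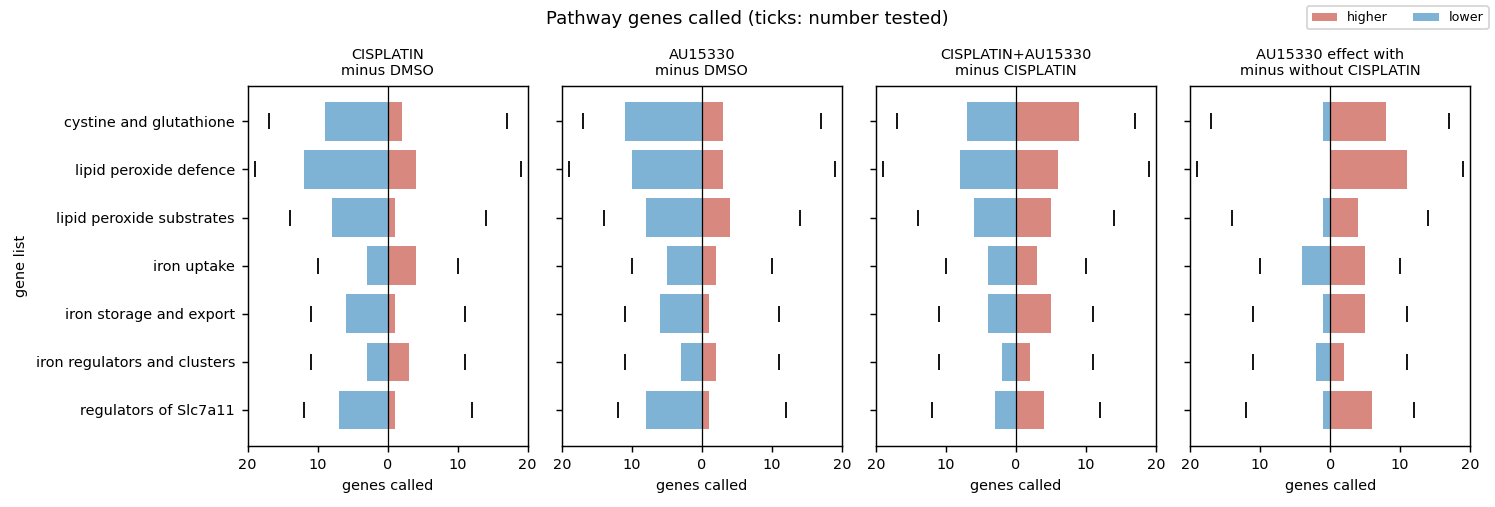
Number of pathway genes called higher (right) and lower (left) per list, with ticks at the number tested, for CISPLATIN against DMSO, AU15330 against DMSO, CISPLATIN+AU15330 against CISPLATIN and the interaction. With either drug alone more genes fell than rose in most lists, and in the interaction 41 of 51 called genes were positive.

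Of 14 tested genes that supply or oxidize polyunsaturated lipids, the group around Acsl4, 1 rose and 8 fell with CISPLATIN (64.3% called, against 51.7% of all genes), and 4 rose and 8 fell with AU15330 (85.7% against 73.4%). The median log2 difference was -0.33 with CISPLATIN and -0.32 with AU15330, against 0.00 over all genes in both. With AU15330, Fads1, the delta-5 desaturase, fell by 2.88 ± 0.12 (adjusted p = 2.85e-17), from a median of 791 CPM to 118 CPM. The oxidoreductase Cyb5r1 fell by 1.56 ± 0.17 with CISPLATIN (adjusted p = 1.72e-08) and by 1.93 ± 0.17 with AU15330 (adjusted p = 9.82e-11). The plasmalogen enzyme Gnpat fell by 0.77 ± 0.06 with CISPLATIN (adjusted p = 1.07e-10).

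The fatty acid elongase Elovl5 rose with AU15330 by 0.74 ± 0.09 (adjusted p = 2.04e-08) and in the combination against CISPLATIN by 0.76 ± 0.09 (adjusted p = 1.74e-08). The plasmalogen enzyme Agps did likewise, by 0.65 ± 0.09 (adjusted p = 9.58e-07) and 0.68 ± 0.09 (adjusted p = 4.66e-07). In the combination against CISPLATIN 5 rose and 6 fell (78.6% against 68.1%), with Fads1 lower by a log2 difference of -1.98 ± 0.12 (adjusted p = 4.63e-14) and Fads2, the delta-6 desaturase, by one of -0.51 ± 0.08 (adjusted p = 8.94e-06). The interaction was 1.62 ± 0.23 for Cyb5r1 (adjusted p = 6.88e-06) and 1.02 ± 0.17 for the oxidoreductase Por (adjusted p = 5.55e-05).

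In the 10 iron uptake genes, 4 rose and 3 fell with CISPLATIN and 2 rose and 5 fell with AU15330 (70.0% called in each, against 51.7% and 73.4% of all genes). Slc39a8, a metal importer of low level (median 6.7 CPM in DMSO), rose by 1.64 ± 0.11 (adjusted p = 4.28e-12) and 1.04 ± 0.11 (adjusted p = 6.49e-09). The mitochondrial iron carrier Slc25a28 fell by 1.27 ± 0.10 with AU15330 (adjusted p = 1.01e-11), and its relative Slc25a37 fell by 0.62 ± 0.17 with CISPLATIN (adjusted p = 0.00340) and fell by 0.95 ± 0.17 with AU15330 (adjusted p = 1.92e-05). The groups of Slc25a37 overlapped between DMSO and each drug alone, with DMSO replicate 1 the lowest DMSO library at 15.2 CPM. The AU15330 libraries ran from 15.1 to 22.7 CPM. Replicates 1 to 3 alone gave -0.51 (adjusted p = 0.181) with CISPLATIN and -0.74 (adjusted p = 0.0371) with AU15330. Against CISPLATIN the combination had 3 higher and 4 lower (70.0% against 68.1%), including the iron transporter Slc11a2 up by 0.50 ± 0.08 (adjusted p = 3.46e-06) and the receptor Lrp1 down by a log2 difference of -0.76 ± 0.13 (adjusted p = 9.17e-06).

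Steap3, which reduces iron after uptake, had 2 to 12 counts in the DMSO libraries and 42 to 63 in AU15330. It rose by 2.21 ± 0.24 with CISPLATIN (adjusted p = 2.56e-08) and by 2.82 ± 0.23 with AU15330 (adjusted p = 3.62e-11), was below the level minimum for named genes, and was named after its values were seen. The lipoxygenase-family gene Aloxe3, of the lipid list and named in the same way, had 0 to 8 counts in DMSO and 91 to 160 in AU15330, and its groups did not overlap.

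In the list of iron storage and export, 11 genes were tested, with 1 higher and 6 lower for either drug against DMSO (63.6% called in each, against 51.7% of all genes with CISPLATIN and 73.4% with AU15330). The gene that rose with AU15330 was Hmox1, which frees iron from heme, by 2.05 ± 0.15 (adjusted p = 3.60e-12), from a median of 320 CPM to 1208 CPM. It rose by 3.35 ± 0.16 when AU15330 was added to CISPLATIN (adjusted p = 6.31e-16), and fell by 0.77 ± 0.15 with CISPLATIN (adjusted p = 9.37e-05), so its directions were those of Slc40a1 in all 3 comparisons. Ftl1 rose in the combination against CISPLATIN by 0.72 ± 0.11 (adjusted p = 1.17e-06). With AU15330, the ferroxidase gene Cp fell by 0.97 ± 0.09 (adjusted p = 1.58e-10), and Ncoa4, which carries ferritin to degradation, fell by 0.63 ± 0.19 (adjusted p = 0.00390). That fall of Ncoa4 rested on part of the libraries: in AU15330, replicates 1 to 3 held 40.4 to 49.7 CPM and replicates 4 to 6 held 92.5 to 95.1 CPM, beside 94.7 to 123 CPM in DMSO. Fitted alone, replicates 4 to 6 gave Ncoa4 a log2 difference of -0.09 (adjusted p = 0.188), and replicates 1 to 3 gave -1.37 (adjusted p = 1.29e-05). The ferroxidase gene Hephl1 rose by 0.85 ± 0.17 with CISPLATIN (adjusted p = 0.000130) and fell by 6.31 ± 0.27 with AU15330 (adjusted p = 6.51e-17), from 208 to 421 counts in DMSO to between 1 and 8. Ncoa4 and Hephl1 were named after their values were seen.

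Of 11 tested iron regulators, 3 rose and 3 fell with CISPLATIN (54.5% called, against 51.7% of all genes), and 2 rose and 3 fell with AU15330 (45.5% against 73.4%). Aco1, whose protein is iron regulatory protein 1 when it lacks its cluster, fell by 0.39 ± 0.06 with AU15330 (adjusted p = 6.71e-06), and Ireb2, which encodes iron regulatory protein 2, had a log2 difference of -0.16 ± 0.09 (adjusted p = 0.115), or -0.23 (adjusted p = 0.0170) without replicate 1. Ireb2 was named after its values were seen. Fbxl5, the iron-sensing ligase subunit, fell by 0.43 ± 0.08 with CISPLATIN (adjusted p = 0.000102), and Nfs1, the cysteine desulfurase, rose by 0.39 ± 0.06 in the combination against CISPLATIN (adjusted p = 1.74e-06).

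The 12 regulators of Slc7a11 were all tested, and 1 rose (Bap1, by 0.20 ± 0.06, adjusted p = 0.00903) and 7 fell with CISPLATIN (66.7% called, against 51.7% of all genes), while 1 rose and 8 fell with AU15330 (75.0% against 73.4%). Nfe2l2, which encodes Nrf2, rose with AU15330 by 1.48 ± 0.07 (adjusted p = 6.20e-16), from a median of 243 CPM to 664 CPM, in the group where Slc7a11 was lowest. Atf4 fell by 0.85 ± 0.12 with CISPLATIN (adjusted p = 2.08e-06) and by 0.76 ± 0.12 with AU15330 (adjusted p = 3.81e-06). It was named after its values were seen, because its letters are those shown in the Slc7a11 promoter.

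Trib3, a target and inhibitor of Atf4, fell by 1.96 ± 0.23 with CISPLATIN (adjusted p = 1.24e-07) and by 2.30 ± 0.24 with AU15330 (adjusted p = 2.71e-09), and Atf3 fell by 1.70 ± 0.21 (adjusted p = 1.52e-07) and fell by 0.85 ± 0.20 (adjusted p = 0.000459). Both had positive interactions, 2.68 ± 0.33 for Trib3 (adjusted p = 7.37e-07) and 2.06 ± 0.29 for Atf3 (adjusted p = 4.59e-06). In the combination against CISPLATIN, Ddit3 rose by 1.29 ± 0.20 (adjusted p = 3.52e-06) and Atf3 by 1.20 ± 0.20 (adjusted p = 9.79e-06), while the repressor Bach1 fell by 0.84 ± 0.10 (adjusted p = 8.79e-08). As with Slc7a11 and Slc3a2, DMSO replicate 1 was the lowest DMSO library of Trib3 (39.0 CPM against a median of 131 CPM), Atf3 (40.3 against 118 CPM), Ddit3 (38.0 against 112 CPM) and Atf4 (382 against 578 CPM), and of 22 of the 56 named pathway genes. Atf3 overlapped between DMSO and each drug alone, and in replicate 1 it was higher with CISPLATIN (45.1 CPM) and with AU15330 (68.0 CPM) than in DMSO. Without replicate 1 its log2 difference was -1.98 with CISPLATIN and -1.08 with AU15330, and in replicates 1 to 3 alone the latter was -0.38 (adjusted p = 0.252). Atf4 also overlapped between DMSO and each drug alone.

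Other pathway differences given above also varied between the replicates. In replicates 1 to 3 alone, the rises with CISPLATIN of Mat2a (0.20, adjusted p = 0.105), Sc5d (0.32, adjusted p = 0.0683) and Bap1 (0.15, adjusted p = 0.244) and that of Gpx1 with AU15330 (0.46, adjusted p = 0.0870) did not pass. With CISPLATIN, the differences in replicates 1 to 3 and in replicates 4 to 6 were -1.06 and -1.94 for Cyb5r1, -1.46 and -2.34 for Trib3, -1.0 and -2.34 for Atf3, -0.53 and -1.18 for Atf4, and 2.68 and 1.88 for Steap3. With AU15330 they were -3.30 and -2.47 for Fads1, -1.35 and -2.39 for Cyb5r1, -1.45 and -3.13 for Trib3, and 3.44 and 2.32 for Steap3. In the combination against CISPLATIN they were 1.42 and 2.37 for Nqo1 and 1.93 and 2.74 for Scd1. In the interaction they were 1.05 and 2.03 for Cyb5r1, 1.88 and 3.42 for Trib3, and 1.37 and 2.63 for Atf3. All of these kept their sign in both sets.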

How the data were processed

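RNA was poly(A)-selected, made into directional libraries and sequenced from both lanes of each of 24 libraries. Per the submitters' processing notes, STAR 2.7.1a, DESeq2 1.36.0 and build mm10 were used; the counting tool, strand setting and annotation are not given in the sources used here. The deposited values are raw read counts per gene symbol, as the authors made them, with no normalization. The 2 lanes of a library were summed. Genes were filtered (filterByExpr), scaled (TMM) and tested with edgeR 4.0.16 (R 4.3.3) quasi-likelihood F tests on group means with 20 residual degrees of freedom, Benjamini-Hochberg adjusted, at a threshold of 0.05. The labels do not say whether replicates were separate cultures, so p-values measure only the spread between these libraries. CPM levels used TMM-scaled totals and log2 CPM a prior count of 2. The floor of 3 counts covers counting error only. The marker sums and ranks used CPM of unscaled totals. The script was tested on simulated data. DESeq2 1.42.0, size factors, total counts, no filter, a replicate block, a required fold of 1.5 and leaving out each replicate were alternatives. GENCODE M21 matched 24366 of 25229 symbols. The members, the pathway lists and the tests were chosen with earlier results of these data known. Named pathway genes were the 2 called genes with the largest increase and the 2 with the largest decrease per list and comparison, at a mean log2 CPM of at least 2. The genes most like Slc7a11 and Trf were the 5 with the highest Pearson r among those with a mean log2 CPM of at least 4. Promoters of Trf and Slc40a1 were not analysed here.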

Additional observations from a re-analysis of the deposited data

Results flagged for a closer look

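For 5 of the 10 members the effect of AU15330 differed with and without CISPLATIN, beside 33.7% of all genes tested, as log2 values of 5.18 for Slc7a11, 3.68 for Trf, 1.65 for Fth1, 1.62 for Slc3a2 and 1.21 for Tfrc. These members were chosen on such comparisons, so the values are a description.

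Of all 94 pathway genes tested, 51 (54.3%) passed the edgeR test of that same difference after adjustment, beside 33.7% of all genes. The pathway lists were chosen with earlier results of these data known, so this share is a description too. The named pathway genes that passed are given next, and since some were named for this difference, their number is not a result. In glutathione metabolism the log2 values were 1.40 for Chac1, 1.09 for Gclm, 0.91 for Slc7a6 and 0.83 for Gclc. In defence against lipid peroxides they were 1.38 for Nqo1, 1.27 for Txnrd1, 1.01 for Scd1, 1.00 for Acsl3, 0.65 for Sephs2 and 0.22 for Gch1. In the lipid substrate list they were 1.62 for Cyb5r1, 1.02 for Por, 0.90 for Fads1, 0.38 for Gnpat and -1.52 for Aloxe3. In iron uptake they were 0.70 for Slc39a14, 0.58 for Cd44, 0.47 for Slc11a2, 0.42 for Slc25a28, -0.68 for Lrp1, -1.16 for Slc39a8 and -1.64 for Steap3. In iron storage and export they were 1.40 for Hephl1, 1.30 for Hmox1, 0.55 for Ftl1, 0.33 for Abcg2 and -0.31 for Cp, and among iron regulators 0.59 for Glrx5, 0.39 for Iscu and -0.51 for Hfe. In the regulators of Slc7a11 they were 2.68 for Trib3, 2.06 for Atf3, 1.54 for Ddit3, 0.99 for Atf4 and -0.34 for Nfe2l2.

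This difference was followed into other fits only for the genes named for it. It was not followed for Slc7a6, Gclc, Scd1, Acsl3, Sephs2, Gch1, Gnpat, Fads1, Aloxe3, Slc11a2, Slc25a28, Steap3, Hephl1, Abcg2, Ddit3 and Atf4. The adjusted p of this difference rose above 0.05 in some fits without a replicate number for Cd44 (0.135 without replicate 2, 0.0921 without 3, 0.0839 without 6 and 0.0700 without 1), Cp (0.159 without 5, 0.153 without 3, 0.106 without 4 and 0.0510 without 2), Glrx5 (0.148 without 5, 0.0991 without 3 and 0.0661 without 4), Iscu (0.0951 without 4, 0.0784 without 5, 0.0661 without 6 and 0.0564 without 3) and Ftl1 (0.0603 without 3). In replicates 1 to 3 alone it was above 0.05 for Chac1 (0.373), Cp (0.314), Glrx5 (0.350), Iscu (0.569), Lrp1 (0.314) and Nfe2l2 (0.122), and in replicates 4 to 6 alone for Cd44 (0.0638) and Hfe (0.0927).

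A library far from the other 5 of its group was sought in 264 groups, the 10 members and 56 named pathway genes in 4 treatments, by Dixon's test on its gap to the nearest library divided by the whole spread of the group, both in CPM. It was found in 0 of 40 groups of members and in 19 groups of pathway genes, where chance flags about 13.2 of 264. In 16 of the 19 the library was replicate 1. In DMSO, replicate 1 was low for Eif2ak3 (0.847), Txnrd1 (0.707) and Slc25a37 (0.669). In CISPLATIN, replicate 1 was apart for Ddit3 (0.829), Gnpat (0.691), Atf4 (0.673) and Iscu (0.628), replicate 3 for Scd1 (0.652) and replicate 2 for Fads2 (0.644). In AU15330, replicate 1 was apart for Gpx1 (0.825), Sephs2 (0.693), Slc7a6 (0.663) and Eif2ak3 (0.639). In CISPLATIN+AU15330, replicate 1 was apart for Glrx5 (0.752), Slc25a37 (0.722), Atf3 (0.696), Atf4 (0.683) and Gpx1 (0.647), and replicate 3 for Sc5d (0.627). With the same ratio taken on log2 CPM, a scale chosen after the values were seen, a library was apart in 20 groups, 17 of them replicate 1. These included 2 groups of members, with DMSO replicate 1 low for Slc7a11 (ratio 0.641) and for Slc3a2 (ratio 0.645).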

How the results depend on the processing

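Of 780 recomputed log2 differences of members, 756 lay within 1 SD of the value reported, the SD being that between libraries within the groups compared. Leaving out 1 of 6 libraries can hardly move a difference that far, so this count says little about those fits. Apart from Aifm2 with total-count scaling, all values that moved further came from replicates 1 to 3 only or 4 to 6 only. Requiring a fold above 1.5 left 1789 genes (22 pathway genes) for CISPLATIN against DMSO, 4657 (31) for AU15330 against DMSO, 3803 (27) for the combination against CISPLATIN, 842 (4) against AU15330, 4683 (28) against DMSO and 926 (19) for the interaction. Total-count scaling moved the median of all genes by 0.13 for AU15330 and 0.14 for the combination against DMSO, split the pathway genes of the latter 25 higher and 39 lower in place of 18 and 50, and put Aifm2 there at -0.10. With the replicate number as a block, 61 pathway genes were called in the interaction in place of 51, and no count moved by over 1.5 times under the block. The labels do not say that the numbers pair the samples. Deviations from the group means had r over 0.1 in 23 of 36 same-number pairs. The mean r was 0.145 for these pairs and -0.027 for pairs of other numbers, and 10 of 24 libraries correlated best with their own number. Libraries of the same number were thus somewhat alike, and the main fit had no term for this. Without replicates in turn, Slc7a11 ran from -5.55 to -4.97 for AU15330 against DMSO and pathway calls from 37 to 49 in the interaction, the cause of which was not tested. In replicates 1 to 3 only, an alternative chosen after seeing the data, the log2 difference of Slc3a2 was -0.57 for AU15330 and 0.018 for the combination against DMSO, with an interaction of 1.23. Tfrc gave -0.61, -0.49 and 1.68 for the same, Aifm2 -0.48 and -0.47, and -0.64 for the combination against CISPLATIN, where Gss gave 0.18. In replicates 4 to 6 only, Slc3a2 gave -1.47, -0.84 and 1.94, Tfrc 0.64, 0.65 and 0.48, and -0.46 for CISPLATIN against DMSO, Aifm2 0.073 and -0.098, Slc40a1 3.65 and Trf -9.18 for AU15330 against DMSO, Slc7a11 -0.45 for the combination against CISPLATIN, and Acsl4 0.16 for the combination against AU15330. Only the comparisons for which a pathway gene was named were refitted for it. Apart from the fold above 1.5, which was not run for single named genes, and the fits of replicates 1 to 3 or 4 to 6 only, called pathway genes that lost their call in some of these fits were Cd44, Cp, Glrx5, Iscu and Ftl1 in the interaction, Iscu and Aco1 in the combination against CISPLATIN, and Slc39a14 with CISPLATIN, 37 of 1133 recomputed values, all in the same direction. Of 101 called differences of named pathway genes, 19 lost their call in replicates 1 to 3 only and 5 in replicates 4 to 6 only, fits of fewer samples chosen after seeing the data, with 0 changes of sign.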
